A study of Ovis aries with 24 samples.

Results

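The genes described here are the neuropeptide Y receptor Y1 (NPY1R) and 3 neuropeptides measured in the vessel wall: prolactin releasing hormone (PRLH), galanin (GAL) and pro-melanin concentrating hormone (PMCH). They are 4 of the 702 genes that could be named on the array. Every probe whose gene name or description names 1 of them was taken, which gave 7 probes: 2 each for NPY1R, GAL and PMCH and 1 for PRLH. All 7 passed the filter on dim probes. The genes were chosen by the differences that earlier results of the same arrays gave for them, so the differences behind that choice are given as descriptions without a test. These are the ductus against the aorta for NPY1R at all 3 stages, for PRLH near term and for GAL in the newborn. The change from near term to newborn is likewise a description for PRLH in the ductus and for PMCH in the aorta, as are the differences between stages or vessels built on any of these. Other comparisons keep their adjusted p, but some reuse arrays behind the choice, and the choice may bear on those values.

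RNA was taken from the ductus arteriosus, a fetal shunt between pulmonary artery and aorta that shuts in the newborn, and from the ascending aorta of sheep. The 6 groups were both vessels of preterm fetuses (97 days of gestation, titled as 100), near-term fetuses (136 days, titled as 140) and newborn lambs (12 hours after birth). Each group had 4 arrays from 4 animals. The animals were untreated as far as the labels say, and breed and sex are not given in them. Each sample is whole vessel wall, so fewer cells of a type and less RNA per cell cannot be told apart.

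Neuropeptide Y is released with noradrenaline from sympathetic nerves, and the Y1 receptor on vascular smooth muscle couples to Gi proteins and promotes constriction. Galanin is a peptide of neurons and endocrine cells that acts through 3 receptors, GALR1 to GALR3. Prolactin releasing hormone acts through PRLHR, and the PMCH precursor yields melanin concentrating hormone, a hypothalamic peptide known for its part in feeding. The arrays measure messenger RNA of these genes, not peptide or receptor protein.

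Levels are log2 of the processed Cy3 signal relative to the 75th percentile of all probes on the same array. A value of -3 lies 3 doublings below that percentile. Each spot also carries the scanner software's mark of whether it was well above background, given below array by array for the 4 genes and as a count of arrays for the other genes where some failed it. Levels of different probes are not compared, since probes bind with different strength. Errors after ± are standard deviations of 4 arrays for a level and standard errors of the fit for a difference. Adjusted p-values are from limma with Benjamini-Hochberg adjustment over the 13997 tested probes, and a probe is called at an adjusted p under 0.05.

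The arrays fell into 2 sets by their spike-in detection limit, 12 above 1.5 and 12 below, and the first principal component, with 65.7% of the variance, followed it (absolute r = 0.96 over 24 arrays, a description). An array is called above the limit where its own detection limit was over 1.5, and under the limit where it was below 1.5. These names do not say whether its signals were detected. The arrays above the limit were 3 of 4 in each fetal aorta group, 2 of 4 in each fetal ductus group, 2 of 4 in the newborn aorta and 0 of 4 in the newborn ductus. Spots well above background made up 66.2% to 94.4% of an array. Each stage lay on 1 slide and each vessel in 1 column of the slides, so stage and slide cannot be told apart, and neither can vessel and column. Where a member's result depends on the detection limit, the value is given beside it. Of the markers of smooth muscle, 1 of 6 was measured, CNN1, and it was bright in every group, with means of 4.99 to 6.13.

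NPY1R was lower in the ductus than in the aorta at all 3 stages, by 2.74-fold preterm, 3.86-fold near term and 5.28-fold in the newborn. These 3 differences are the reason the gene was chosen and carry no test. Its level in either vessel did not pass the test for a change from one stage to the next.

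In the preterm aorta the first NPY1R probe read -2.64, -2.07, -2.44 and -2.54, and in the preterm ductus -4.03, -3.60, -3.84 and -4.03. The lowest aorta array was thus nearly 1 unit above the highest ductus array. Near term the aorta read -2.59, -1.92, -1.87 and -3.30 and the ductus -3.49, -4.80, -3.93 and -5.25. The groups did not overlap, but the fourth aorta array came close to the first ductus array, and the fourth ductus array, the dimmest, was not well above background. In the newborn the aorta read -1.70, -2.39, -2.35 and -1.73 and the ductus -4.45, -4.14, -4.45 and -4.72. Here the vessels were farthest apart and each group was narrow.

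The log2 difference, ductus minus aorta, was -1.45 ± 0.34 preterm, -1.95 ± 0.34 near term and -2.40 ± 0.34 in the newborn. The second probe, from the same GenBank record (a partial coding sequence of the sheep receptor), gave -1.45 ± 0.25, -2.16 ± 0.25 and -2.24 ± 0.25. Its arrays did not overlap at any stage either. Both probes followed each other over the 24 arrays (r = 0.96, and 0.77 after the group means were removed). Of all probes, 0.707% were called between the vessels preterm, 1.15% near term and 10.1% in the newborn, and 8.4%, 6.35% and 20.1% had vessels that did not overlap. Over all tested probes the median difference was -0.20, -0.12 and -0.28. How much of each NPY1R value is shared by probes of like brightness was not tested.

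**Figure D1:**
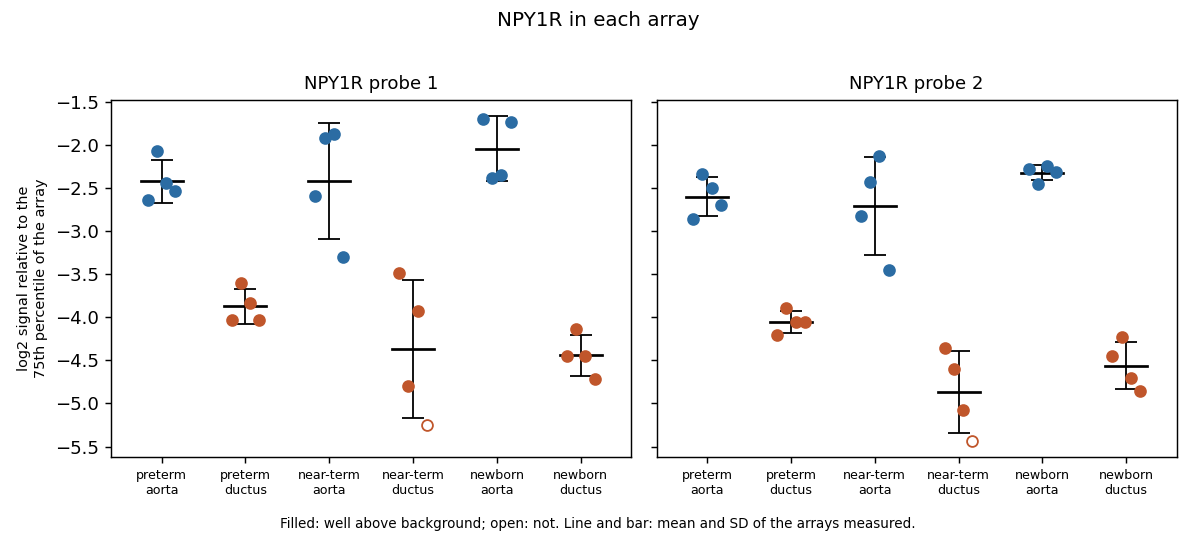
Level of the 2 NPY1R probes (log2 signal relative to the 75th percentile of the array) in each of the 24 arrays by group, blue for aorta and orange for ductus. Lines and bars are the mean and SD of 4 arrays, and open points were not well above background; the ductus lies below the aorta at every stage in both probes.

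Ordered by mean, the first probe ran from the newborn aorta (-2.04 ± 0.38) through the preterm aorta (-2.42 ± 0.25) and near-term aorta (-2.42 ± 0.67) to the preterm ductus (-3.87 ± 0.20), near-term ductus (-4.37 ± 0.80) and newborn ductus (-4.44 ± 0.24). Neighbouring aorta groups overlapped, and so did neighbouring ductus groups. The one step without overlap was that of 1.45 between the lowest aorta group and the highest ductus group. The second probe gave the same split into vessels, with the newborn ductus (-4.56 ± 0.28) above the near-term ductus (-4.87 ± 0.48). With that probe the step of 0.51 from the preterm ductus to the newborn ductus was without overlap too.

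Within the ductus the first probe differed by -0.49 ± 0.34 from preterm to near term (adjusted p = 0.591) and by -0.07 ± 0.34 from near term to newborn (adjusted p = 0.892). The second probe gave -0.81 ± 0.25 for the earlier step, where the arrays did not overlap but the test did not pass (adjusted p = 0.192), and 0.31 ± 0.25 for the later one (adjusted p = 0.370). Within the aorta the first probe differed by 0.00 ± 0.34 (adjusted p = 1) and 0.38 ± 0.34 (adjusted p = 0.546). The vessel difference itself moved by -0.49 ± 0.48 from preterm to near term and by -0.45 ± 0.48 from near term to newborn. The second probe's difference moved by -0.70 ± 0.35 and -0.08 ± 0.35 over the same steps. These moves are built on the differences the gene was chosen for and are descriptions.

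NPY1R tended to read higher on arrays with a higher detection limit (r = 0.38 over 24 arrays, 0.43 within groups). With the limit class as a covariate the vessel differences were -1.38, -1.87 and -2.25. With only the arrays under the limit, which leaves 1 preterm and 1 near-term aorta array, they were -1.08, -2.43 and -2.40. With the other background correction (normexp) they shrank to -0.84, -0.82 and -1.58, keeping their sign.

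PRLH had its highest level in the near-term ductus, where it was 4.30-fold above the near-term aorta. The 4 near-term ductus arrays read -1.56, -2.68, -1.09 and -1.95. The near-term aorta read -4.83, -3.62, -3.42 and -3.83, the first of which was not well above background. Every ductus array was above every aorta array, and the difference of 2.11 ± 0.39 is the one the gene was chosen for.

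The other 4 groups lay close together. The preterm aorta read -3.92, -3.82, -3.76 and -3.64, the narrowest group. The preterm ductus read -2.77, -4.49, -3.54 and -3.65, with its first array near the lowest near-term ductus array. The newborn aorta read -4.31, -3.76, -4.19 and -3.36, and the newborn ductus -3.73, -3.97, -4.33 and -5.15. In order of their means the groups were the near-term ductus (-1.82 ± 0.67), preterm ductus (-3.61 ± 0.70), preterm aorta (-3.79 ± 0.11), newborn aorta (-3.90 ± 0.43), near-term aorta (-3.92 ± 0.62) and newborn ductus (-4.29 ± 0.62). Only the step below the near-term ductus was without overlap.

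From preterm to near term the ductus level differed by 1.80 ± 0.39, or 3.47-fold, and its arrays did not overlap, which 5.99% of all probes share. The near-term ductus arrays are among those the gene was chosen for, so the adjusted p-values of this step are given as values only. In the main fit the adjusted p was 0.0519, and 0.314% of probes were called. Of 7 alternatives other than leaving out 1 array, 1 was under 0.05, the limit class as a covariate (1.80, adjusted p = 0.0131). The highest adjusted p of the 7 was 0.433. Of 8 fits that each left out 1 array, 2 were under 0.05. These were without the first preterm ductus array (2.08, adjusted p = 0.0370) and without the second near-term ductus array (2.08, adjusted p = 0.0249). The highest adjusted p of the 8 was 0.251. From near term to newborn the ductus level was 5.56-fold lower (-2.48 ± 0.39), a description. The arrays of that step did not overlap, as for 22.2% of all probes, and 10.8% of probes were called.

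The aorta differed by -0.14 ± 0.39 (adjusted p = 0.933) and 0.02 ± 0.39 (adjusted p = 0.982) over the same steps. The vessels differed by 0.17 ± 0.39 preterm (adjusted p = 0.852) and by -0.39 ± 0.39 in the newborn (adjusted p = 0.483). As descriptions, the vessel difference moved by 1.93 ± 0.55 into the near-term stage and by -2.50 ± 0.55 out of it, where 0.393% of probes were called.

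PRLH followed the detection limit most closely of the 4 genes (r = 0.44, and 0.63 within groups). Within the near-term ductus the 2 arrays above the limit, the first and the third, were the 2 highest. The lower near-term ductus arrays, both under the limit, read -2.68 and -1.95. The single near-term aorta array under the limit, at -4.83, was not well above background. With the limit class as a covariate the near-term vessel difference was 2.28, with only arrays under the limit 2.52, with quantile normalization 2.85 and with normexp 0.87.

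GAL was well above background in part of the ductus arrays and in 0 of the 12 aorta arrays. The probes carry the name of a sheep gene identifier that RefSeq gives to GAL, and both come from 1 expressed sequence tag. The first probe passed on 3 preterm, 2 near-term and 3 newborn ductus arrays, and the second on 3, 1 and 3. Both probes thus entered the test through ductus arrays alone, so a vessel difference was built into their selection and the adjusted p-values between the vessels are given as values only. Where the aorta is below background the fold is a bound, and it holds for the main processing only. The mean of the ductus arrays, dim ones included, is set against a floor for each aorta array. That floor is the lowest signal that still counted as well above background on the array, or the probe's own reading where higher. With normexp the first probe's differences, given below, were smaller than its bounds.

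In the preterm ductus the first GAL probe read -5.83, -3.97, -4.91 and -3.88, and only the first of these was not well above background. The preterm aorta read -7.44, -7.01, -7.10 and -7.62, all below. The groups did not overlap. The ductus was at least 1.75-fold higher, with a measured difference of 2.64 ± 0.63 (adjusted p = 0.0565). The second probe gave at least 1.30-fold and 2.00 ± 0.63 (adjusted p = 0.187), and there the first ductus array, at -7.54, fell among the aorta arrays. With normexp the first probe's difference was 0.58.

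Near term the ductus read -5.26, -7.92, -5.76 and -4.74, and the second and the third of these were not well above background. The near-term aorta read -5.50, -7.36, -5.70 and -5.29, none of them well above background. The groups overlapped throughout and differed by 0.04 ± 0.63 (adjusted p = 0.992), and no fold is given.

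In the newborn ductus the probe read -3.92, -5.73, -4.39 and -3.58, with the second array not well above background. The newborn aorta read -7.37, -7.65, -7.69 and -6.18. All ductus arrays were above all aorta arrays, the closest of the first probe being -5.73 and -6.18. As group means, the ductus was at least 2.15-fold higher for the first probe and at least 2.03-fold for the second. The measured differences were 2.81 ± 0.63 and 2.21 ± 0.63. This is the difference the gene was chosen for. With normexp the first probe's difference was 0.29.

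From preterm to near term the ductus level differed by -1.27 ± 0.63 (adjusted p = 0.457), and from near term to newborn by 1.51 ± 0.63 (adjusted p = 0.116). The newborn ductus arrays are among those the gene was chosen for, so the later adjusted p is given as a value only. Neighbouring groups overlapped at every step of the order, from the newborn ductus (-4.41 ± 0.94), preterm ductus (-4.65 ± 0.92) and near-term ductus (-5.92 ± 1.40) down to the 3 aorta groups. GAL did not follow the detection limit within groups (r = 0.03 and -0.03 for the 2 probes), and its probes followed each other less closely than those of NPY1R (r = 0.85, and 0.67 within groups).

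**Figure D2:**
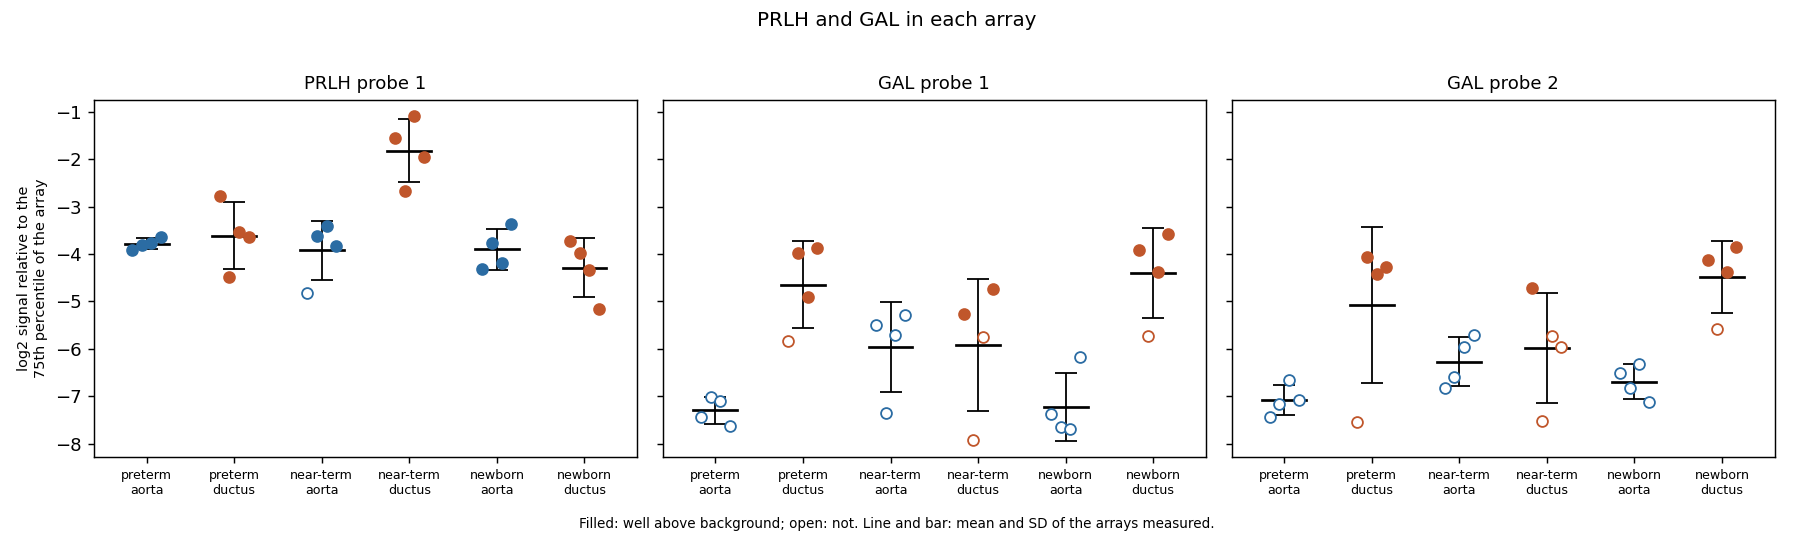
Level of PRLH and of the 2 GAL probes (log2 signal relative to the 75th percentile of the array) in each array by group, blue for aorta and orange for ductus, with the mean and SD of 4 arrays. Open points were not well above background: all 12 aorta arrays are open for GAL, and the near-term ductus stands above every other group for PRLH.

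PMCH fell in both vessels between the near-term and newborn stages and did not pass the test between the vessels at any stage. In the ductus it fell 3.87-fold (-1.95 ± 0.30, adjusted p = 0.000304). A rule on the largest rises and falls between successive stages did not name this drop as behind the choice of PMCH. It named the drop in the aorta, which was 3.95-fold (-1.98 ± 0.30). The full span from preterm to newborn, which shares the newborn ductus arrays, was not checked. The choice may therefore bear on the adjusted p of the ductus drop.

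The first PMCH probe read -3.10, -2.44, -2.18 and -2.60 in the near-term ductus and -4.41, -4.71, -4.91 and -4.10 in the newborn ductus. The lowest near-term array was 1 unit above the highest newborn array. Of all probes, 22.2% had arrays that did not overlap between these 2 ductus groups. In the aorta the first PMCH probe read -3.53, -2.46, -3.16 and -2.70 near term and -4.27, -5.84, -5.22 and -4.46 in the newborn, the second of which was not well above background. The aorta groups did not overlap either, which 11.3% of probes share, and 6.44% of probes were called between these 2 groups. The second probe fell by 1.61 in the ductus (3.04-fold, adjusted p = 0.00353) and 3.39-fold in the aorta. In the ductus comparison 6.45% of all probes were called lower and tested probes as a whole had a median difference of -0.31.

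The drop in the ductus passed in every setting tried except quantile normalization, where it was -0.88 (adjusted p = 0.298). It was -1.90 with the limit class as a covariate (adjusted p = 0.000763) and -2.01 with only arrays under the limit (adjusted p = 0.0295). Leaving out any 1 array of the 2 groups gave -2.12 to -1.82. Since each stage was on a slide of its own, the stage and the slide cannot be told apart for this drop.

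Before birth, the preterm ductus read -2.23, -1.79, -1.93 and -1.70 and the preterm aorta -2.12, -2.20, -2.34 and -2.10. These were the highest groups and among the narrowest. From preterm to near term PMCH differed by -0.67 ± 0.30 in the ductus (adjusted p = 0.408) and by -0.77 ± 0.30 in the aorta (adjusted p = 0.333). The aorta arrays did not overlap, as for 9.02% of probes, and 0.493% of probes were called. The order of means was thus by stage: preterm ductus (-1.91 ± 0.23), preterm aorta (-2.19 ± 0.11), near-term ductus (-2.58 ± 0.38), near-term aorta (-2.97 ± 0.48), newborn ductus (-4.53 ± 0.35) and newborn aorta (-4.95 ± 0.72). Neighbours overlapped at every step but the one into the newborn groups, a gap of 1.57.

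The ductus was above the aorta by 0.28 ± 0.30 preterm (adjusted p = 0.678), 0.38 ± 0.30 near term (adjusted p = 0.934) and 0.42 ± 0.30 in the newborn (adjusted p = 0.330), with overlapping arrays each time. The vessel difference moved by 0.11 ± 0.42 from preterm to near term (adjusted p = 1, with 0% of probes called) and, as a description, by 0.03 ± 0.42 from near term to newborn. PMCH did not follow the detection limit within groups (r = 0.04 for the first probe), and its probes followed each other closely (r = 0.98, and 0.84 within groups). Both probes come from the same sequence record and were named by the array's gene symbol, so their agreement is no separate check of that name.

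**Figure D3:**
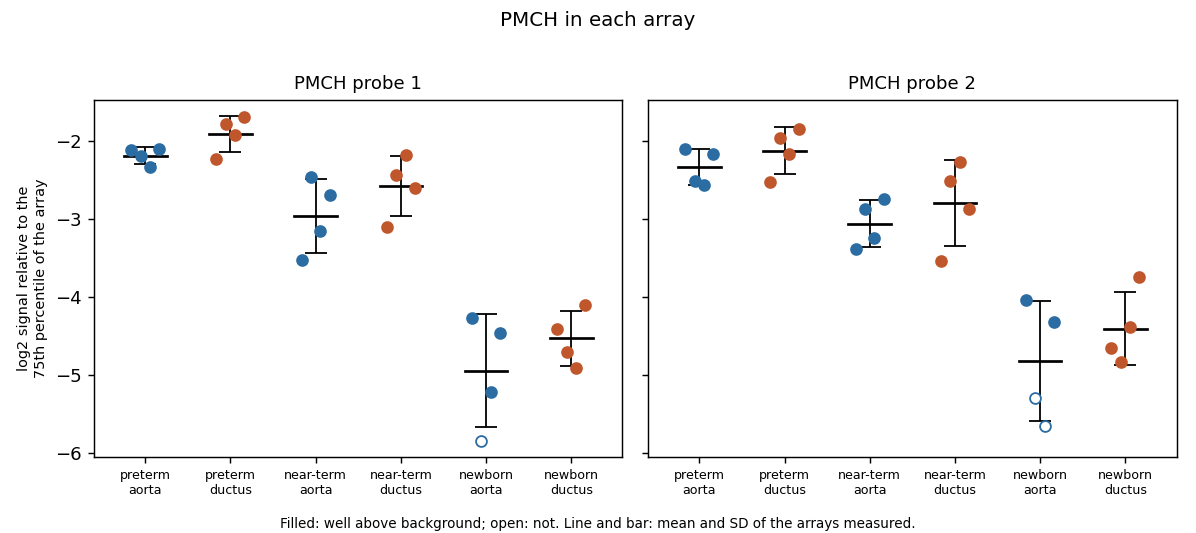
Level of the 2 PMCH probes (log2 signal relative to the 75th percentile of the array) in each array by group, blue for aorta and orange for ductus, with the mean and SD of 4 arrays and open points not well above background. Both vessels lie lowest in the newborn, with group means of -4.53 and -4.95 for the first probe.

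**Figure D4:**
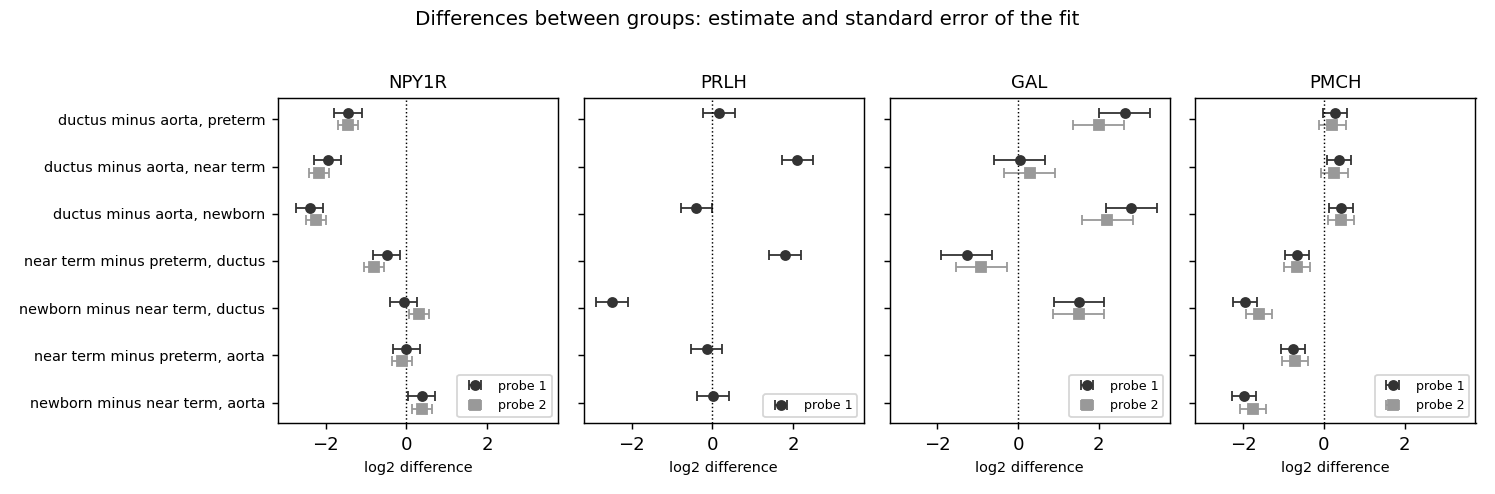
Log2 difference between groups with the standard error of the fit for each member probe (circles, first probe; squares, second probe) in the 7 comparisons of vessels and of successive stages. NPY1R lies below 0 in all 3 vessel comparisons, PRLH is off 0 in those that involve the near-term ductus, and PMCH is below 0 in both newborn steps; GAL in the aorta is left out because both groups were below background.

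Of the ligands of the neuropeptide Y receptor family, NPY and PPY were on the array. NPY, the sympathetic co-transmitter, was well above background on all 24 arrays with its first probe. It read -2.43, 0.02, -2.20 and -1.17 in the preterm ductus against -4.49, -1.70, -2.75 and -3.24 in the preterm aorta. The 2 groups overlapped, and the difference of 1.60 ± 0.72 did not pass (adjusted p = 0.425). The second probe gave 2.03 ± 0.71 (adjusted p = 0.268). The second preterm ductus array was by far the highest of its group with both probes.

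NPY differed between the vessels by 0.37 ± 0.72 near term (adjusted p = 0.935) and by 0.47 ± 0.78 in the newborn (adjusted p = 0.684), the latter with 3 measured aorta arrays because 1 spot was an outlier. Its adjusted p was 0.446 or more in all stage comparisons of both vessels with the first probe. PPY, pancreatic polypeptide, was well above background on 13 arrays, 0 of them newborn ductus, and differed by -1.73 ± 1.00 in the newborn (adjusted p = 0.241). The Y2 receptor NPY2R was well above background on 3 of 24 arrays with 1 probe and 0 with the other, and was not tested. Of 11 sympathetic nerve markers 1 was on the array, the noradrenaline transporter SLC6A2. It was well above background on 4 preterm, 4 near-term and 3 newborn aorta arrays and on 2, 2 and 1 ductus arrays. Its linear level, in multiples of the 75th percentile, was 0.00263 to 0.150 in the preterm ductus and 0.0261 to 0.145 in the preterm aorta. Near term it was 0.00683 to 0.308 and 0.0610 to 0.340, and in the newborn 0.00496 to 0.0197 and 0.00406 to 0.590. The vessels overlapped at each stage, and the part of nerve RNA in the NPY and NPY1R values was not tested.

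Of the receptors for the 3 peptides, GALR1 and GALR3 were measured, while PRLHR and both melanin concentrating hormone receptors were not among the named probes. GALR1 was well above background on all 24 arrays, with means of -3.03 (near-term aorta) to -3.95 (newborn ductus). The ductus differed from the aorta by -0.49 ± 0.39 preterm (adjusted p = 0.600), -0.27 ± 0.39 near term (adjusted p = 0.934) and -0.40 ± 0.39 in the newborn (adjusted p = 0.463). GALR3, well above background on 3 or 4 arrays of each group, differed between the vessels by 0.18, -0.04 and 0.01, with a standard error of 0.33. Its second probe fell by 1.51 ± 0.42 in the aorta from near term to newborn (adjusted p = 0.0362), where 3 near-term arrays and 1 newborn array were well above background, whereas the first, brighter probe gave -0.84 ± 0.33 (adjusted p = 0.142). PRL, the hormone that gave prolactin releasing hormone its name, was well above background on 0 of 24 arrays with either probe.

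**Figure D5:**
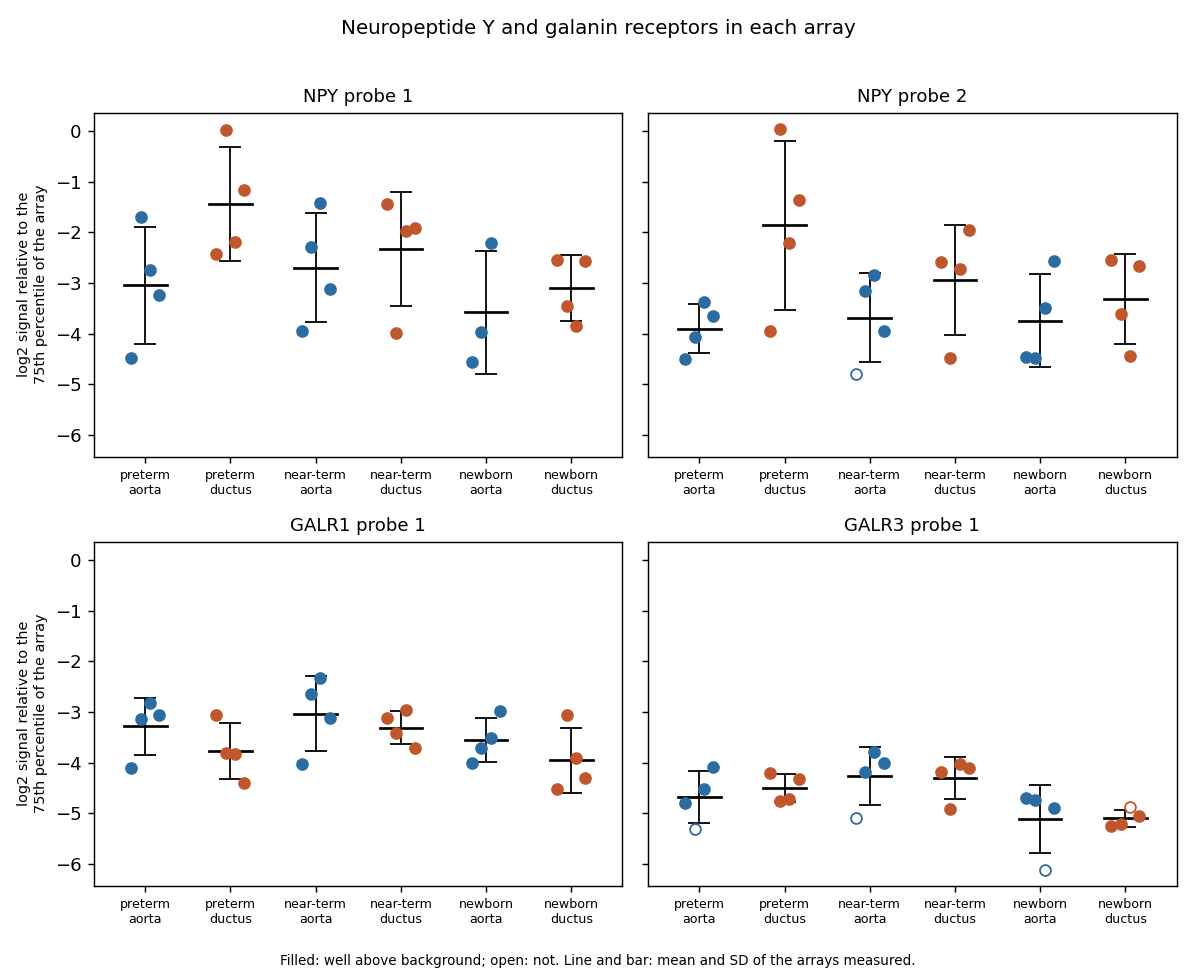
Level of both NPY probes, GALR1 and the first GALR3 probe (log2 signal relative to the 75th percentile of the array) in each array by group, blue for aorta and orange for ductus, with the mean and SD of the arrays measured. Ductus and aorta overlap at every stage in the first NPY probe, GALR1 and GALR3, and the second NPY probe varied most within the preterm ductus.

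The wider neuropeptide system was read from a list. Of 132 listed genes of neuropeptides, their receptors, peptide processing and Gi coupling, 42 were on the array and 35 were tested. Between the vessels 0 of 35 were called preterm, 0 near term and 1 in the newborn, where 0.707%, 1.15% and 10.1% of all probes were called. From preterm to near term 0 of 35 were called in either vessel, against 0.314% of all probes in the ductus and 0.493% in the aorta. From near term to newborn 1 was called in the ductus, against 10.8%, and 0 in the aorta, against 6.44%. At the shares of 0.314% to 1.15%, a count of 0 among 35 genes says little about the list. By list, 2 genes of the neuropeptide Y system were tested, 2 partners of the other peptides, 12 other neuropeptides, 13 of their receptors, 5 genes of peptide processing and breakdown, and 1 of Gi coupling, RGS2.

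The call between the vessels was NPPC, C-type natriuretic peptide, a relaxing peptide of endothelium, which was higher in the newborn ductus by 3.58 ± 0.99 (adjusted p = 0.0246), with 4 newborn ductus and 3 newborn aorta arrays well above background. That call was lost with only the newborn groups in the fit (adjusted p = 0.153) and without the first newborn aorta array (2.54, adjusted p = 0.0769), the second (3.18, adjusted p = 0.0589) or the second newborn ductus array (3.16, adjusted p = 0.0732). The call between stages was CPE, carboxypeptidase E, which trims peptide hormones during their maturation. CPE fell by 1.00 ± 0.30 in the ductus from near term to newborn (adjusted p = 0.0352), from 4.45 ± 0.09 to 3.45 ± 0.20. Its call was lost with median centring (-0.69, adjusted p = 0.208), with normexp (-0.78, adjusted p = 0.0757), with its other probe (-0.96, adjusted p = 0.0865) and without any of 7 of the 8 arrays compared (-1.06 to -0.93), the exception being the fourth near-term ductus array. In the aorta CPE differed by -0.68 ± 0.30 (adjusted p = 0.199). The orexin receptor HCRTR1 came next between the newborn vessels (-3.06 ± 0.98, adjusted p = 0.0520, and -1.83 with adjusted p = 0.0398 once the limit class was a covariate), followed by the peptide urocortin, UCN (-1.66 ± 0.72, adjusted p = 0.144). Both were well above background on 4 newborn aorta arrays and 1 newborn ductus array. The other UCN probe, well above background on 0 newborn ductus arrays, was called in this comparison (adjusted p = 0.0423).

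From near term to newborn in the ductus the next smallest adjusted p-values were those of the opioid receptor OPRM1 (adjusted p = 0.0709), UCN (-2.01 ± 0.72, adjusted p = 0.0787) and the tachykinin TAC3 (adjusted p = 0.0869), all lower in the newborn. OPRM1 and TAC3 were well above background on 2 near-term and 0 newborn ductus arrays, so no size is given for them. UCN passed on 3 and 1, and its other probe, on 3 and 0, was called here too (adjusted p = 0.0245). From preterm to near term they were those of HCRTR2 in the ductus (adjusted p = 0.396, well above background on 0 preterm and 2 near-term arrays) and oxytocin, OXT, in the aorta (0.77 ± 0.31, adjusted p = 0.364). The median of the 35 genes was -0.89, -0.51 and -1.37 between the vessels, against -0.20, -0.12 and -0.28 over all probes. In the ductus it was 0.85 and then -1.70 between successive stages, against 0.22 and -0.31. Many of these genes are dim. Most of them read lowest in the newborn ductus, the group in which 0 arrays had a detection limit above 1.5. The part of the detection limit in these medians was not tested.

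The expression patterns most like each member were looked for among 668 other named genes over the 24 arrays, which share their slides and detection limits. For NPY1R they were IL15 (r = 0.82, and 0.96 over the 6 group means), BCAT1 (0.78 and 0.84), LPO (0.77 and 0.87), FGF18 (0.76 and 0.91) and CRY1 (0.75 and 0.99). For PRLH they were OSTN (0.64 and 0.68), TPSB2 (0.61 and 0.77), SNAI2 (0.60 and 0.66), AANAT (0.59 and 0.51) and PTGER1 (0.56 and 0.53), the weakest matches of the 4. For GAL, most of whose arrays were below background, they were LDHA (0.75 and 0.90), HOXA4 (0.68 and 0.85), IL1A (0.67 and 0.86), SLC2A3 (0.66 and 0.78) and WT1 (0.64 and 0.97).

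For PMCH the matches were the closest: TYMS (0.95 and 0.99), ASPM (0.93 and 0.99), IGFBP2 (0.88 and 0.92), CA11 (0.85 and 0.93) and H2AZ1 (0.84 and 0.93). After the group means were removed the correlation with TYMS was 0.73 and with ASPM 0.56, so PMCH and these genes also varied together among arrays of 1 group. For NPY1R and IL15 it was 0.25, so that likeness lies mainly between groups.

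Markers of other cell types differed between the vessels beside these results. Over 2 of 5 fibroblast markers the summed linear level was 38.9 to 56.6 times the 75th percentile in the preterm aorta and 66.3 to 81.8 in the preterm ductus. Near term it was 19.5 to 39.9 and 49.4 to 77.8, and in the newborn 12.6 to 30.0 and 43.2 to 68.7, with the ductus above the aorta at each stage. That sum is nearly all decorin (DCN), which was higher in the newborn ductus by 1.31 ± 0.25 (adjusted p = 0.00265). The other measured marker, the collagen gene COL1A1, differed by -0.50, -0.36 and -0.44 at the 3 stages, with a standard error of 0.31. Over 3 of 6 endothelial markers the summed level was 0.455 to 1.01 in the newborn aorta and 1.15 to 2.59 in the newborn ductus, where NOS3, endothelial nitric oxide synthase, was higher by 1.60 ± 0.35 (adjusted p = 0.00589). The vessels overlapped in that sum at both fetal stages. Over 2 of 4 neutrophil markers it was 0.191 to 0.734 in the newborn aorta and 0.0151 to 0.157 in the newborn ductus. CATHL1B and BAC5, genes of antimicrobial peptides, were both called lower there (adjusted p = 0.0310 and 0.0467), with 4 aorta arrays and 1 ductus array well above background. Of 4 tested lymphocyte markers 1 was called between the newborn vessels, the chemokine receptor CXCR4, higher in the ductus by 1.92 ± 0.32 (adjusted p = 0.000604). Only this 1 of the 4 was above 0, and the median difference of the 4 was -1.37. Over 4 of 5 adipocyte markers the summed level was 3.16 to 7.01 in the newborn aorta and 0.465 to 1.62 in the newborn ductus. Near term (0.527 to 12.8 and 0.228 to 0.978) and preterm (0.123 to 0.451 and 0.0565 to 0.406) the vessels overlapped. Between the newborn and near-term ductus the 1 macrophage marker of 4 on the array, CD14, rose by 1.51 ± 0.21 (adjusted p = 8.09e-05). In the aorta CD14 rose by 1.07 and was called too, a call lost with normexp, median centring and only the compared groups. The newborn vessels differed by 0.49 in CD14, which was not called. The part of these cell types in the values of NPY1R, PRLH, GAL and PMCH was not tested.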

How the data were processed

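RNA of 24 sheep vessel samples was amplified and labelled with Cy3, and each sample has an Agilent array of its own, per the labels' protocols. The deposited spot intensities are linear and background-subtracted, per the file headers, which name version 9.5.3.1 of Feature Extraction.

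Control spots and outlier spots (2 to 124 per array) were left out. From the log2 intensity the array's own 75th percentile (322.1 to 1142.9) was subtracted. Probes well above background on at least 4 of 24 arrays (13997 of 15008) were fitted together with limma 3.58.1 in R 4.3.3, using eBayes on 6 group means, and 9 two-sided comparisons were read from that fit. The number of arrays limits the precision. Names came from RefSeq (ARS-UI_Ramb_v3.0) for 520 probes by accession, 135 by gene ID, 440 by symbol and 37 by synonym, and by hand from the array's descriptions for 111; 13765 probes stayed unnamed. Lists use the brightest probe of a gene. The text names all member probes, every measured gene of the neuropeptide Y system and of the peptides' partners, called genes and those of smallest p in the other lists, and the 5 most alike genes of each member. The members and lists were chosen with earlier results of these data known.

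The labels do not tie the ductus and aorta of 1 number to 1 animal. Same-numbered arrays deviated together in 6 of 12 pairs (r over 0.1), so the numbers were not used as pairs. Among all pairs of arrays 0 held identical values, and the statistical steps were tested on simulated data. No probe sequence was used here. The alternatives were other background corrections, scalings and filters, the detection limit, the groups compared alone, a replicate block and each array left out.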

Additional observations from a re-analysis of the deposited data

Results flagged for a closer look

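In 2 of the 47 groups of 4 arrays tested, over the main probes of the members and of their partners, 1 array stood far from the other 3; about 1 group in 20 does so by chance. Both were in GALR3, a galanin receptor. The second near-term ductus array read -4.92 against -4.18 to -4.03 in the others, and the third newborn aorta array read -6.12 against -4.90 to -4.69.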

How the results depend on the processing

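The vessel differences of NPY1R at 3 stages, PRLH near term and GAL in the newborn, the later ductus change of PRLH and the falls of PMCH kept their sign under every alternative run. Between stages the vessel difference moved by -0.49 and -0.45 for NPY1R and by 0.11 and 0.03 for PMCH. The NPY1R moves kept their sign in 8 and 7 of 9 alternatives and in all 16 fits each that left out 1 array. The PMCH moves kept theirs in 9 and 7 of 9, and in 13 and 9 of 16. NPY1R moved with normexp (-0.84 preterm, -0.82 near term, -1.58 in the newborn), with only arrays under the detection limit (-1.08 preterm) and with quantile normalization (-1.71 in the newborn). PRLH near term moved to 0.87 with normexp and 2.85 with quantile normalization, and GAL in the newborn to 0.29 with normexp. The cause was not tested. Leaving out 1 array of the compared groups gave -1.54 to -1.34, -2.24 to -1.65 and -2.52 to -2.29 for NPY1R, 1.80 to 2.39 for PRLH and 2.54 to 3.26 for GAL. For GAL from near term to newborn in the ductus, 1 of 8 alternatives was under 0.05, quantile normalization (2.70, adjusted p = 0.0178). The adjusted p was 0.116 in the main fit and 0.0178 to 0.611 over those 8, which do not include leaving out 1 array. The newborn ductus arrays are among those the gene was chosen for, so these adjusted p-values are values only.

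The counts of called probes that stand behind the background shares were less stable. Between the vessels they were 99 preterm, 161 near term and 1416 in the newborn. They became 58, 49 and 833 with median centring, 52, 50 and 855 with normexp, 33, 40 and 371 with only the compared groups in the fit, and 378, 944 and 853 with only arrays under the limit. From preterm to near term the main counts were 44 in the ductus and 69 in the aorta. They were 12 and 14 with median centring, 2 and 12 with only the compared groups, 148 and 104 with the limit class as a covariate, and 0 and 287 with only arrays under the limit; normexp gave 28 in the ductus. From near term to newborn the counts of 1515 and 902 became 871 and 0 with only the compared groups and 614 and 1498 with only arrays under the limit, while normexp gave 5412 in the ductus and median centring 181 in the aorta. For the difference of the vessel differences, 0 and 55 became 13 and 153 with only arrays under the limit, and the 55 became 33 with median centring. Leaving out 1 array gave 52 to 85, 70 to 156 and 857 to 1592 between the vessels, 11 to 54 and 18 to 53 from preterm to near term, and 921 to 2171 and 478 to 1532 from near term to newborn, in the ductus and the aorta. Higher calls were 72 of 99, 95 of 161 and 721 of 1416 between the vessels, and 51 of 58, 37 of 49 and 571 of 833 with median centring. From near term to newborn in the ductus 612 of 1515 were higher, 624 of 1028 with median centring and 693 of 5412 with normexp.

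Samples shared only a number: r between same-numbered arrays ran from -0.59 to 0.82, and 5 of 12 matched their own number best. With the replicate number as a block, the counts between the vessels were 185, 264 and 2005, with 89 for the last difference of differences. GAL preterm, which entered the test through ductus arrays alone, then had an adjusted p of 0.00959, and the block changed the call of no other member's tested vessel comparison. Signal limits GAL most, with all aorta arrays below background.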
